A study of Mus musculus with 2 samples.

Results

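The SLC25 genes encode the mitochondrial carriers, and their chromatin accessibility was described here in control and Taf4-inactivated mouse enteroids. Members were the protein-coding genes of the mm9 annotation whose symbol is Slc25a followed by a number. This gave 44 of 22380 protein-coding genes, spread over 19 chromosomes. The family below means these 44 genes, and carriers under other symbols, such as Mcart1 and Mcart6, were not counted. The assay was ATAC-seq, in which a transposase cuts and tags accessible DNA, and the data were 2 lists of peaks, 1 library for each genotype. Enteroids are cultures of intestinal epithelium grown from crypts in a gel matrix, here from the ileum of 4 month old mice of strain C57Bl6/129sv. The control library (WT, ctrl_TAM) came from Taf4 lox/lox enteroids without Cre, and the Taf4-inactivated library (KO, DT_TAM) from Taf4 lox/lox enteroids with VilCreERT2, a tamoxifen-inducible Cre under the villin promoter, which is active in intestinal epithelium. Both carried the floxed Taf4 alleles and both received 1 µM 4-hydroxytamoxifen for 3 days. The comparison concerned accessibility at these genes with and without inactivation of Taf4, which belongs to the general transcription factor TFIID. Cre was present in the Taf4-inactivated library alone, so its presence and the loss of Taf4 cannot be told apart here. With 1 library per genotype no spread between cultures could be computed.

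Mitochondrial carriers are small proteins of the inner membrane that exchange nucleotides, phosphate, carboxylates, amino acids and cofactors between the mitochondrial matrix and the cytosol. They are encoded in the nucleus, made in the cytosol and inserted by the TIM22 translocase, and a few members work in the peroxisome or the outer membrane. In intestinal epithelium, carriers of this family supply ATP from oxidative phosphorylation, citrate for lipid synthesis, and ornithine and aspartate for the amino acid metabolism of enterocytes.

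The control list held 90445 peaks and the Taf4-inactivated list 71282. A background level was solved from the fold and p of the narrowest 10% of peaks and read at its 5th percentile. It was 12.1 in control and 7.35 after Taf4 inactivation (ratio 1.65), so counts of peaks are not on 1 scale. Median fold over the library's own background was 2.03 in control and 2.45 after Taf4 inactivation, and fold was therefore read as a percentile, the share of peaks of the same list at or below it. Of 8 epithelial markers, 7 had a start site peak in control and 8 after Taf4 inactivation, and of 10 markers of other cell types 4 and 2 did, with Ptprc, Cd3e, Cdh5, Col3a1 and Alb among those without one in either. Of these other markers, Col1a1 (percentiles 10.7 and 18.1) and Myh11 (49.2 and 35.3) were called in both lists, and Pecam1 (21.8) and Sox10 (0.244) in control alone. Taf4a, the targeted gene, kept a start site peak in both lists (percentile 74.7 and 58.7), which does not check the deletion, as the lists hold no reads over the deleted part.

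The sequences just upstream of the main start site are shown for 6 members at the ends of the range of values. Each is the 150 bases before the main start site, 5′ to 3′ on the strand of the gene, from the NCBIM37 (mm9) genome, with every CG dinucleotide in capitals. The first pair are the phosphate carrier Slc25a3 (chr10:90586805-90586954, minus strand) and the uncoupling protein-like Slc25a27 (chr17:43804126-43804275, minus strand), which held the highest percentiles of the family, Slc25a3 in control and Slc25a27 after Taf4 inactivation. The second pair, Slc25a34 (chr4:141179737-141179886, minus strand) and Slc25a48 (chr13:56539566-56539715, plus strand), are the members whose percentile differed most between the lists, in opposite directions. The last pair had no peak at this start in either list: Slc25a18 (chr6:120723636-120723785, plus strand) and Slc25a47 (chr12:110089189-110089338, plus strand).
Slc25a3: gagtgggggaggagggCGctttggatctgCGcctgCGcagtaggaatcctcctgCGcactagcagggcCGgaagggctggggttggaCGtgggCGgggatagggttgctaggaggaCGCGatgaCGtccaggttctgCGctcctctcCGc
Slc25a27: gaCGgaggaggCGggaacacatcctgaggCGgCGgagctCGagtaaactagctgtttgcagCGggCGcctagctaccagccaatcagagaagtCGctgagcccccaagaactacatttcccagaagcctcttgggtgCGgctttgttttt
Slc25a34: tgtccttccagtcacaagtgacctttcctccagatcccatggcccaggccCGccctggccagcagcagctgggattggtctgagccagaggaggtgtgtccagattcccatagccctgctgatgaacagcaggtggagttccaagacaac
Slc25a48: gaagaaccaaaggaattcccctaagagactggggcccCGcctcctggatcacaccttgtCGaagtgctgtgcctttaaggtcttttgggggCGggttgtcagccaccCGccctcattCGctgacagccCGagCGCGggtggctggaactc
Slc25a18: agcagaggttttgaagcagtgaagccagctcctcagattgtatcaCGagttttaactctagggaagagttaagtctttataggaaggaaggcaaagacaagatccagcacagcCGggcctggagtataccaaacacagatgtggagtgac
Slc25a47: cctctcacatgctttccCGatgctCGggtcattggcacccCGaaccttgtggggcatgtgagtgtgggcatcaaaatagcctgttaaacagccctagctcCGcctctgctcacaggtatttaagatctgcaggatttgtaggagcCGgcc

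These windows held 12 CG dinucleotides in Slc25a3, 9 in Slc25a27, 1 in Slc25a34, 8 in Slc25a48, 2 in Slc25a18 and 5 in Slc25a47. The median was 8 over the 44 members and 6 over all protein-coding genes. Slc25a3 and Slc25a27 were thus above both medians and Slc25a34, Slc25a18 and Slc25a47 below both, while Slc25a48 lay at the median of the family.

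Most SLC25 genes were accessible at their start site in both lists. A start site peak, a peak within 1 kb of an annotated transcript start, was present in control at 41 of 44 members (93.2%), beside 68.4% of all protein-coding genes, and in the Taf4-inactivated list at 40 of 44 (90.9%), beside 65.5%. Both lists had such a peak at 40 members, or 90.9%, beside 62.7% of all protein-coding genes. Only Slc25a18 had one in the control list alone (background 5.7%), none had one in the Taf4-inactivated list alone (background 2.9%), and 3 had none in either list (background 28.7%). At all 40 members called in both lists the start site peaks of the lists overlapped, by 337 to 1908 bp with a median of 844 bp. This median was close to that of the 14022 protein-coding genes called in both, 847 bp, with quartiles of 553 and 1174 bp.

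The peaks were high in their lists. In control, 21 of the 41 members with a start site peak (51.2%) were in the top 10% of the list by fold, beside 41.7% of all protein-coding genes with one, and in the Taf4-inactivated list 18 of 40 (45.0%) were, beside 32.1%. The median percentile of the members was 91.5 in control and 86.2 after Taf4 inactivation, and that of all protein-coding genes with a start site peak was 86.5 and 81.5. The drop between the lists was therefore of like size in the family and in the genome. Taken gene by gene, the percentile in the Taf4-inactivated list minus that in control had a median of -1.86 points over the 40 members and -2.77 points over the 14022 protein-coding genes called in both. It was below 0 in 25 members (62.5%; all genes 65.9%) and within 10 points of 0 in 29 (72.5%; all genes 60.1%). Across the members the percentiles of the lists had a Spearman correlation of 0.92 (n = 40 genes), and across all genes 0.81 (n = 14022), as a description, since the genes share the 2 libraries.

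**Figure D1:**
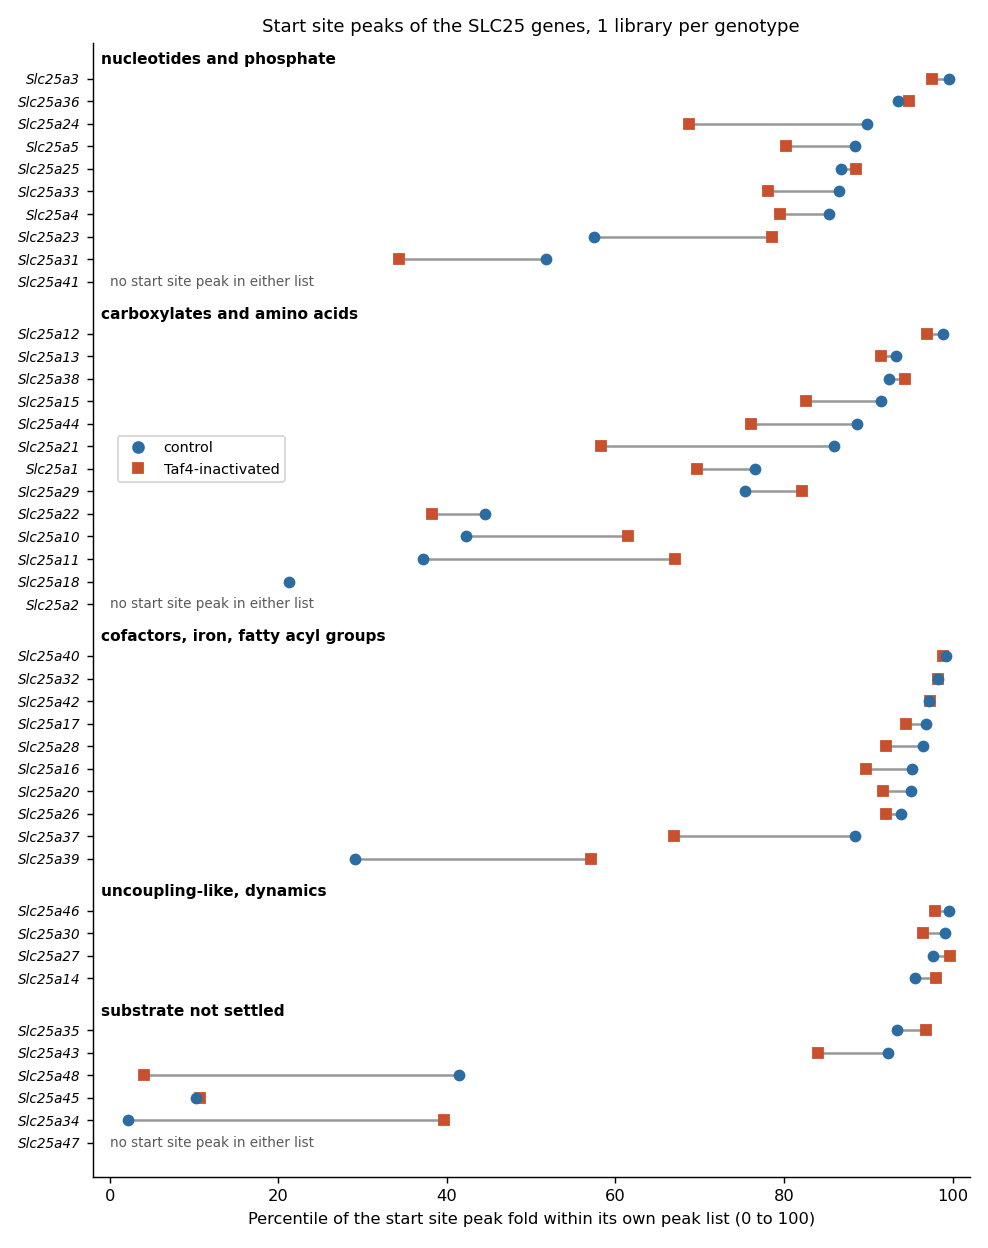
Percentile (0 to 100) of the start site peak fold of the SLC25 genes reported here within its own peak list, for control (circles) and Taf4-inactivated (squares) enteroids, 1 library each, with genes grouped by what they carry and a grey line joining the values of a gene. All uncoupling protein-like and dynamics members sit above 95 in both lists, and the genes with an unsettled substrate reach down to 2.23 in control and 4.12 after Taf4 inactivation.

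Among the carriers of nucleotides and phosphate, 9 of 10 were called at a start site in both lists. Slc25a3, which brings in the phosphate for ATP synthesis, had a fold of 3.79 in control (percentile 99.6, the highest of the family there) and 4.57 after Taf4 inactivation (97.5). The ADP/ATP carriers Slc25a4 and Slc25a5, which exchange ATP for ADP, were lower: Slc25a4 had 2.41 in control (85.3) and 3.12 after Taf4 inactivation (79.6), and Slc25a5 had 2.51 (88.5) and 3.15 (80.2). The testis ADP/ATP carrier Slc25a31 had a weak peak in each list, with a fold of 2.04 in control (51.8) and 2.29 after Taf4 inactivation (34.3). Its level in an epithelial culture thus stood below those of Slc25a4 and Slc25a5 in both lists.

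The ATP-Mg/phosphate carriers, which change the adenine nucleotide content of the matrix, split. Slc25a24 went from 2.57 (89.9) in control to 2.78 (68.7) in the Taf4-inactivated list, and Slc25a23 from 2.08 (57.5) to 3.09 (78.6), the only member of this group standing over 20 points higher after Taf4 inactivation. Slc25a25 was close in both, with 2.45 (86.7) and 3.58 (88.5), and Slc25a41 had no start site peak in either list. The peak of Slc25a23 also lies within 1 kb of the start of Crb3, 714 bp away on the other strand, so the gene it belongs to cannot be told apart here. The pyrimidine nucleotide carriers stood high, with Slc25a36 at 93.5 and 94.8 and Slc25a33 at 86.5 and 78.1.

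Of the 13 carriers of carboxylates and amino acids, 12 had a start site peak in control and 11 after Taf4 inactivation. The aspartate/glutamate carriers of the malate-aspartate shuttle stood high in both lists, Slc25a12 with folds of 3.44 (98.8) in control and 4.45 (96.9) after Taf4 inactivation, and Slc25a13 with 2.75 (93.2) and 3.8 (91.4). Their partner in the shuttle, the oxoglutarate/malate carrier Slc25a11, had a low fold in control, 1.97 (37.2), over a peak of 1875 bp, and 2.74 (67.1) over 1769 bp in the Taf4-inactivated list. The dicarboxylate carrier Slc25a10 differed the same way, from 1.99 (42.3) to 2.62 (61.5), and the oxodicarboxylate carrier Slc25a21, which acts in lysine and tryptophan breakdown, the other way, from 2.42 (85.9) to 2.57 (58.3). The start of Rnf167 lies 76 bp from that of Slc25a11 on the other strand, and 1 peak covers both.

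Slc25a1, the citrate carrier that feeds cytosolic lipid synthesis, had 2.25 (76.5) in control and 2.80 (69.6) after Taf4 inactivation. The ornithine carrier Slc25a15 of the urea cycle was at 91.5 and 82.6, the glycine carrier Slc25a38 needed for heme synthesis at 92.4 and 94.3, the branched-chain amino acid carrier Slc25a44 at 88.7 and 76.0, and the basic amino acid carrier Slc25a29 at 75.4 and 82.1. Of the glutamate carriers, Slc25a22 had 2.0 (44.6) and 2.32 (38.2), at peaks that covered its main start in neither list. Slc25a18 likewise had no peak at its main start. The single start site peak of Slc25a18 lay at another annotated start, chr6:120735886-120736344, 459 bp wide, with a fold of 1.90 (21.2) and a −log10 q of 1.37 in control. That peak was among the weaker ones of the list, and was gone when the control list was shortened to the length of the other, which left 40 members with a start site peak in each. The ornithine carrier Slc25a2 had none in either list.

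The carriers of cofactors, iron and fatty acyl groups were called throughout. All 11 were called at a start site in both lists, with a median percentile of 95.2 in control and 92.1 after Taf4 inactivation. The coenzyme A carriers Slc25a42 (97.2 and 97.3) and Slc25a16 (95.2 and 89.7), the folate/FAD carrier Slc25a32 (98.3 and 98.2), the S-adenosylmethionine carrier Slc25a26 (93.9 and 92.0) and the peroxisomal carrier Slc25a17 (96.8 and 94.5) all stood in the upper part of both lists. The peaks of Slc25a42 did not cover its main start in either list. With the peak nearest to that start its rank difference was 20.4 points in place of 0.13. Slc25a20, the carnitine/acylcarnitine carrier that admits fatty acids for oxidation, was at 95 and 91.7.

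Within this group the related pairs differed. Of the mitoferrins, which import iron, Slc25a28 had folds of 3.04 (96.4) in control and 3.85 (92.1) after Taf4 inactivation, and Slc25a37 had 2.51 (88.4) and 2.73 (66.9). Of the glutathione carriers, Slc25a40 had 3.59 (99.2) and 4.95 (98.8), whereas Slc25a39 had 1.93 (29.1) in control and 2.55 (57.1) after Taf4 inactivation. The Slc25a39 peak was the widest of the family in control, 2468 bp, and 1937 bp in the Taf4-inactivated list. The deposited fold is an average over the whole peak, so values of wide and narrow peaks are not measured over like stretches of DNA.

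The uncoupling protein-like carriers and the dynamics factor were at the top of both lists. Slc25a27 had a fold of 3.21 (97.6) in control and 5.57 (99.7) after Taf4 inactivation, the highest of the family in that list. Slc25a14 was at 95.5 and 98.1, Slc25a30 at 99.1 and 96.5, and Slc25a46, an outer membrane protein that takes part in mitochondrial fission and fusion, at 99.6 and 97.9. The start of Cyp39a1 lies 249 bp from that of Slc25a27, and that of B930094E09Rik 390 bp from that of Slc25a46, so the gene these peaks belong to cannot be told apart here. The peaks of Slc25a46 did not cover its main start in either list. Among the 6 members whose substrate is not settled, Slc25a35 (93.3 and 96.8) and Slc25a43 (92.3 and 84.0) were high, Slc25a45 was low in both (1.82, 10.2 and 2.1, 10.7), and Slc25a47 had no start site peak. The remaining genes of this group, Slc25a34 and Slc25a48, held the largest rank differences among the members as defined by symbol.

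In each direction 4 members differed by 20 points or more. Higher in control by at least 20 points were Slc25a48 (-37.3 points), Slc25a21 (-27.6), Slc25a37 (-21.5) and Slc25a24 (-21.2), 4 of 40 beside 12.3% of all protein-coding genes, followed by Slc25a31 (-17.5). Higher in the Taf4-inactivated list by at least 20 points were Slc25a34 (37.5 points), Slc25a11 (29.9), Slc25a39 (28.0) and Slc25a23 (21.1), 4 of 40 beside 7.84%, followed by Slc25a10 (19.2). The first share is near the background and the second rests on 4 genes, and no p-value can be given with 1 library per genotype. In these bulk libraries a change in the share of a cell type and a change within cells cannot be told apart. Of the epithelial markers, 4 were lower after Taf4 inactivation, with percentiles of 94.4 in control and 77.5 in the other list for Lgr5, 94.0 and 75.1 for Vil1, 87.6 and 68.8 for Epcam, and 9.74 and 0.679 for Cdx1. The other 4 were Cdh1 at 93.8 and 95, Cdx2 at 91.8 and 94.6, Krt8 at 80.3 and 81.3, and Krt20, called after Taf4 inactivation alone at 59.8. Their part in these differences was not tested. The rank differences are also given by the percentile in control. Of the 9 members below percentile 60 in control, 4 were at least 20 points higher and 1 at least 20 points lower in the Taf4-inactivated list, beside 36.4% and 11.1% of all genes in that range. Of the 10 between 60 and 90, 3 were at least 20 points lower (all genes 22.8%), and of the 21 at 90 or above none was (all genes 4.79%).

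**Figure D2:**
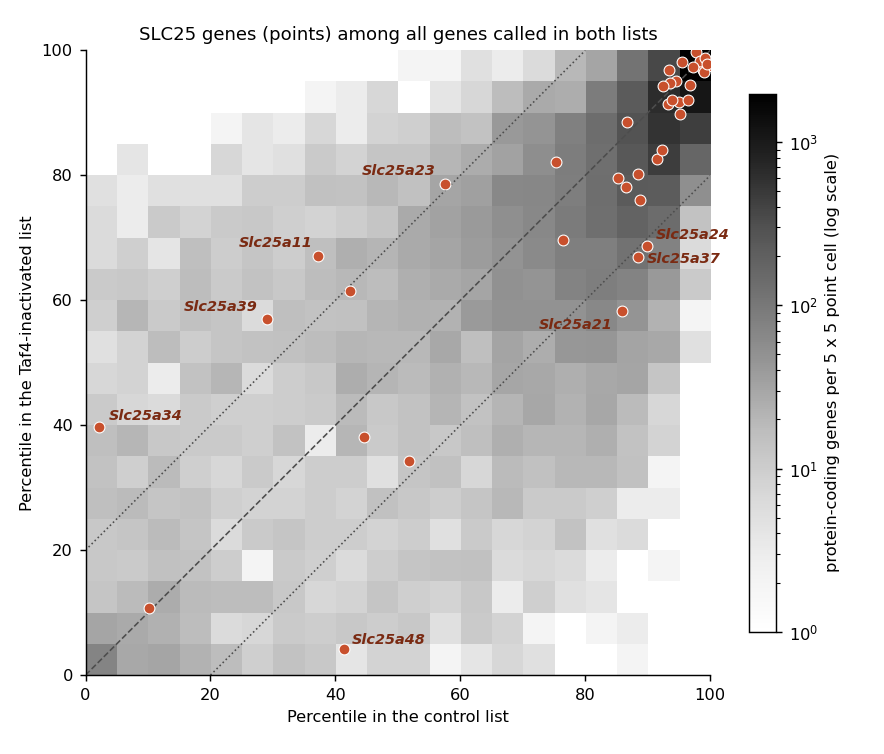
Percentile of the start site peak in the control list (x axis) against the Taf4-inactivated list (y axis) for the 40 SLC25 genes called in both (points), over the number of all 14022 protein-coding genes called in both per cell of 5 by 5 points (grey, log scale). The dashed line marks equal percentiles and the dotted lines 20 points of difference, beyond which lie the 8 named genes, 4 on each side.

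A lower percentile did not mean a lower fold. Fold was higher in the Taf4-inactivated list at all 40 members, and at 96.0% of all protein-coding genes, so the higher folds of the shallower library were general. The log2 ratio of the folds, Taf4-inactivated over control, had a median of 0.39 in the family and 0.34 over all genes, and ran from 0.01 in Slc25a48 to 0.80 in Slc25a27. At Slc25a48 the folds were 1.99 and 2.0, which is percentile 41.4 of the control list and 4.12 of the other. Its −log10 q went from 2.97 to 1.57, and the peak shortened from 797 bp (chr13:56539531-56540327) to 518 bp (chr13:56539835-56540352), which no longer covered the main start. Slc25a34 changed in the opposite sense, from a 462 bp peak (chr4:141179170-141179631) with a fold of 1.71 and a −log10 q of 1.88, beside the main start, to a 1013 bp peak (chr4:141178998-141180010) over it, with 2.33 and 4.90. Each of these genes thus sat near the lower end of a list by fold, Slc25a34 in control and Slc25a48 in the Taf4-inactivated list.

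**Figure D3:**
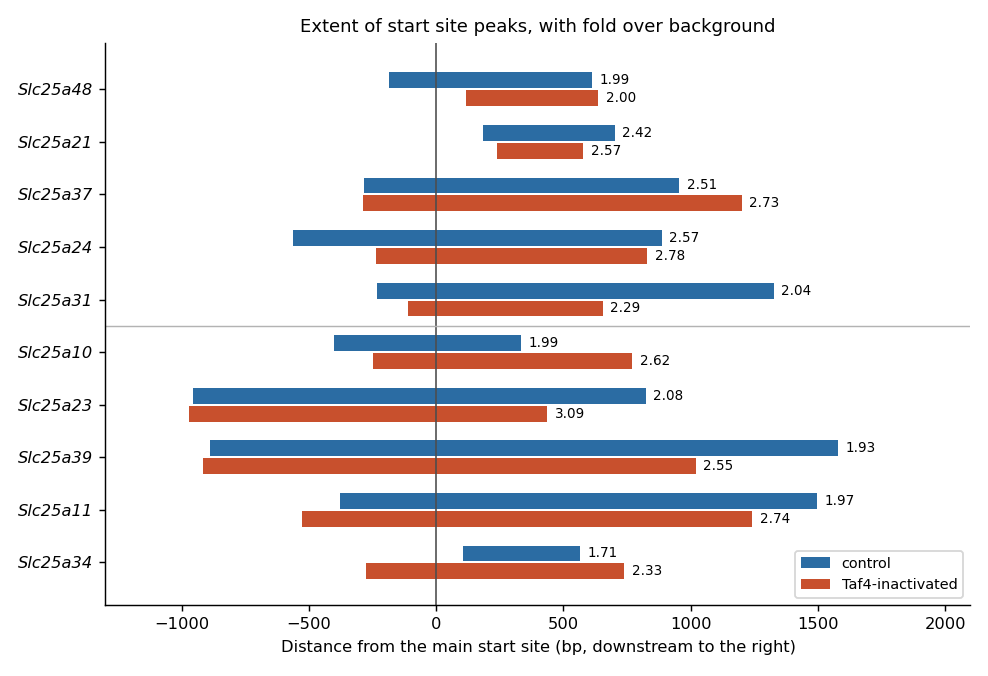
Extent of the start site peak in control and Taf4-inactivated enteroids, as distance in bp from the main start site with downstream to the right, for the 5 SLC25 genes with the largest rank difference towards control (above the grey line) and the 5 towards the Taf4-inactivated list (below it). The number at each bar is the deposited fold, and the Slc25a48 bar of the Taf4-inactivated list starts downstream of the main start site.

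Ranking on another value changed which members passed 20 points. Ranked by −log10 p, 2 members (Slc25a21 and Slc25a48) were at least 20 points higher in control and 1 (Slc25a34) in the Taf4-inactivated list, beside 12.7% and 3.62% of all genes. Ranked among the start site peaks of protein-coding genes alone, 3 (Slc25a21, Slc25a24 and Slc25a37) and 1 (Slc25a23) were, beside 13.1% and 10.8%. Slc25a21 was the single member past 20 points under each ranking value, at the same sign, and its peaks did not cover the main start in either list: chr12:58297759-58298276 in control and chr12:58297882-58298218 in the Taf4-inactivated list.

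Compared with other mitochondrial genes, the family was called about as often. A start site peak was present in control at 97.4% of 77 mitochondrial ribosomal protein genes and 90.8% of 87 respiratory chain genes, and at 79.2% of the 318 other Slc genes, which encode carriers of other membranes. In the Taf4-inactivated list these shares were 98.7%, 90.8% and 78.6%. The median percentile in control was 91.5 in the SLC25 genes, 88.4 in the mitochondrial ribosomal protein genes, 90.02 in the respiratory chain genes and 79.2 in the other Slc genes. The median rank difference was 0.16 points in the mitochondrial ribosomal protein genes, -0.75 in the respiratory chain genes and -3.11 in the other Slc genes, so that of the SLC25 genes lay between. The quartiles of the percentile in control ran from 75.4 to 95.5 in the SLC25 genes and from 76.5 to 95.7 in the mitochondrial ribosomal protein genes. The first quartile in the Taf4-inactivated list was 68.3 in the SLC25 genes, 76.4 in the mitochondrial ribosomal protein genes and 79.2 in the respiratory chain genes. These differences were not tested.

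**Figure D4:**
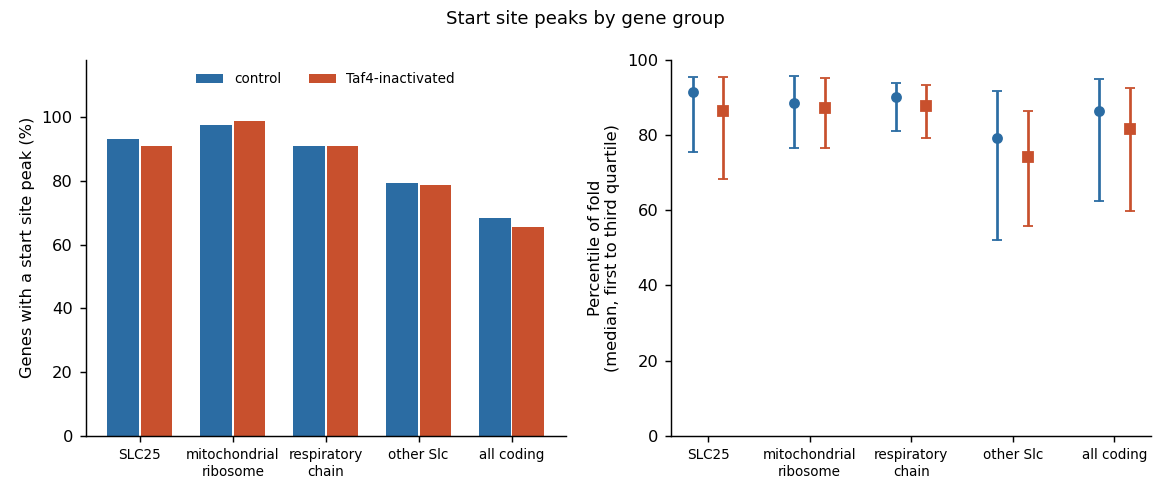
Left, share of genes (%) with a start site peak in the control and Taf4-inactivated lists for the SLC25 genes, 3 gene groups and all protein-coding genes. Right, median percentile of fold of the genes with a start site peak, with bars from the first to the third quartile over genes. The SLC25 genes are at 93.2% and 90.9%, near the respiratory chain genes and above the other Slc genes.

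Of 20 listed genes of related mitochondrial transport, 18 were found in the annotation, and 17 of them were called at a start site in both. The exception was Ucp3, an uncoupling protein of muscle, with none. The median rank difference of these 17 was -6.59 points, with 2 at least 20 points higher in control, none in the other direction, and 14 below 0. Ucp1, the uncoupling protein of brown fat, had the largest difference, -45.7 points, more than any member in size. Its fold went from 2.52 (88.7) in control to 2.37 (43.0) in the Taf4-inactivated list. The serine carrier Sfxn1 went from 2.62 (90.9) to 2.75 (67.6). Ucp2, the uncoupling protein of many tissues, was at 64.7 and 73.5. Tomm70a, the receptor through which carrier precursors enter, stood at 99.7 and 98.3, and the carrier import chaperones Timm9 and Timm10 at 88.9 and 69.3, and at 85.9 and 73.6. The subunits of the pyruvate carrier, Brp44 and Brp44l, were at 96.3 and 90.9, and at 96.3 and 86.4. The outer membrane pores were at 91.4 and 77.9 for Vdac1, 95.6 and 82.6 for Vdac2, and 98.9 and 92.3 for Vdac3. The remaining members of the list were Letm1 (94.7 and 97.3), Mtch1 (97.5 and 92.6), Mtch2 (95.2 and 94.6), Timm22 (83.9 and 82.7), Mcart1 (69.7 and 72.9) and Mcart6 (78.1 and 66.1).

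Of the 44 members, 7 (15.9%) had the start of another protein-coding gene within 1 kb, all on the other strand, beside 13.7% of all protein-coding genes. The closest besides Slc25a11 were Slc25a40 with Dbf4, 134 bp apart, and Slc25a32 with Dcaf13, 158 bp apart, and Naif1 started 965 bp from Slc25a25. The DNA between the start sites is shown for Slc25a40 (chr5:8422717-8422849, plus strand) and Slc25a32 (chr15:38944263-38944419, minus strand), as each was covered by a single high peak in both lists. Lower case is mm9 sequence read 5′ to 3′ towards the SLC25 gene, and capitals mark GGGCGG, the core letters bound by Sp factors, on either strand.
Dbf4 to Slc25a40: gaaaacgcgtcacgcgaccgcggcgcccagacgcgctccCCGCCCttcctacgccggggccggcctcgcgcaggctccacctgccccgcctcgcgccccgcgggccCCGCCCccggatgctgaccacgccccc
Dcaf13 to Slc25a32: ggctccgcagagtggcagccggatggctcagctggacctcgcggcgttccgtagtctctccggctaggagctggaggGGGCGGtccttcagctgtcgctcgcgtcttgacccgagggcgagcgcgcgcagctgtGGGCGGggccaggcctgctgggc

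Each of these stretches held the Sp letters at 2 places, and none of the letters searched for ETS factors (CCGGAAG), NRF-1 (GCATGCGC), the CCAAT box (CCAAT), the E-box (CACGTG), YY1 (ATGGCG) or the TATA box (TATAAA). They were rich in CG, with 23 CG dinucleotides in 133 bases at Slc25a40 and 17 in 157 bases at Slc25a32. In the 150 bases before the main start, 20 of 44 members (45.5%) and 35.9% of all protein-coding genes held GGGCGG.

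Over a wider window, from 250 bases before to 50 bases after the main start and on both strands, GGGCGG was present in 27 members (61.4%), beside 43.9% of all protein-coding genes, and in 0 of the 4 members not called in both lists. The E-box letters were present in 20.5% of members and 7.69% of all genes, the ETS letters in 15.9% and 10.8%, the CCAAT box in 47.7% and 37.9%, the YY1 letters in 11.4% and 10.7%, the NRF-1 letters in 2.27% and 3.31%, and TATAAA in 4.55% and 13.5%. The ratio of observed to expected CG had a median of 0.59 in the family and 0.54 over all genes. It was 0.65 in the 40 members called in both lists, and 0.29 in the 4 that were not, of which the highest had 0.53. It exceeded 0.6 in 21 of the 40 (52.5%) and in 0 of the 4, beside 45.5% of all protein-coding genes. The share in the 40 is thus near the background, and the other rests on 4 genes. Among the 40 its Spearman correlation with the percentile was 0.17 in control and 0.27 after Taf4 inactivation (n = 40 genes, as a description). The ratio was taken at the main start and the percentile from the highest start site peak, which can lie at another start. That peak covered the main start in 34 of 41 members in control and 33 of 40 after Taf4 inactivation. The correlation therefore pairs unlike stretches of DNA in some members. A match of letters is a description of the sequence and not a bound site.

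Peaks away from the members' own start sites were counted next. The gene bodies with 10 kb on each side held 127 such peaks in control and 111 after Taf4 inactivation, with a median per gene of 3 and 2, beside 2 and 1 for all protein-coding genes. Per 100 kb of window the members had 5.22 and 4.43 gene-peak pairs, and all protein-coding genes 4.37 and 3.42. No other peak was found at 4 members in control (9.09%; all protein-coding genes 25.8%) and at 6 after Taf4 inactivation (13.6%; all protein-coding genes 29.97%). The most other peaks in control were at Slc25a13, Slc25a26 and Slc25a48, with 7 each, and in the Taf4-inactivated list at Slc25a48, with 7, and at Slc25a13, Slc25a37 and Slc25a44, with 6 each. At Slc25a48 3 of the 7 peaks of each list overlapped the other list, while at Slc25a44 all 5 control peaks did.

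**Figure D5:**
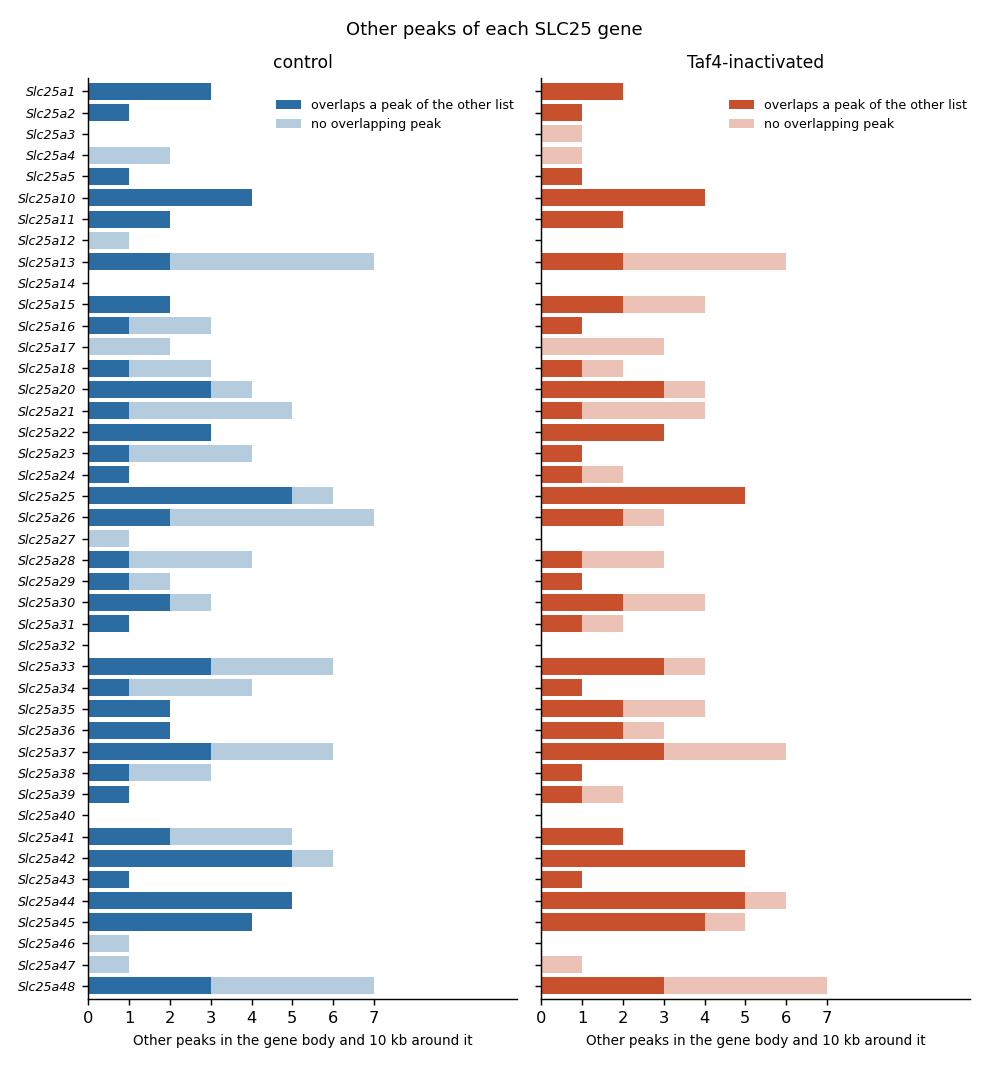
Number of other peaks per SLC25 gene reported here in the gene body and 10 kb around it, in control (left) and Taf4-inactivated (right) enteroids, with dark bars for peaks that overlap a peak of the other list and light bars for those that do not. Slc25a10 and Slc25a44 have overlapping peaks throughout in control, and most peaks of Slc25a13 have no overlapping peak in either list.

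Of the other peaks, 54 of 127 in control had no base in common with the Taf4-inactivated list (42.5%, exact 95% interval 33.8 to 51.6), beside 55.4% around all protein-coding genes, and 39 of 111 in the Taf4-inactivated list had none in common with control (35.1%, 26.3 to 44.8), beside 42.4%. The intervals cover counting error only. Which list had the larger share depended on the peaks used: with the control list cut to the length of the other the shares were 34.9% and 38.7%, beside 48.3% and 48.8% around all protein-coding genes. With peaks of a −log10 q of at least 2 they were 26.0% and 33.3%, beside 44.9% and 48.1%, and with peaks of at least 5 they were 18.8% and 73.5%, beside 9.82% and 61.7%. Of the peaks at the start of another gene, 4 of 29 in control (13.8%) and 3 of 28 after Taf4 inactivation (10.7%) were without an overlapping peak, beside 23.1% and 12.3% around all protein-coding genes. Away from every start site these numbers were 50 of 98 (51.0%) and 36 of 83 (43.4%), beside 60.9% and 48.4%. Of the family's start site peaks, 5 of 48 in control (10.4%) and 1 of 44 after Taf4 inactivation (2.27%) had no overlapping peak, beside 18.4% and 10.3% of those of all protein-coding genes. Depth was estimated to differ by 1.65 times between the libraries. A peak missing from the shallower list thus cannot be told apart from one that was not detectable at its depth.

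In the Taf4-inactivated list the 3 highest other peaks were start sites of neighbours, as was the highest in control. In both lists the highest lay downstream of Slc25a30 at the start of Cog3, with a fold of 3.57 (99.2) in control and 4.53 (97.3) after Taf4 inactivation, followed in the latter by those at Rpsa near Slc25a38 (4.45) and Khsrp near Slc25a41 (4.44). The window of Slc25a2, itself without a start site peak, held the start site peak of Taf7, another TFIID subunit, with 2.23 (74.8) in control and 4.27 (95.9) after Taf4 inactivation. Away from all start sites, the highest in control was in an intron of Slc25a25, chr2:32296255-32296635, with 3.29 (98.1), and overlapped a peak of the other list. An intronic peak of Slc25a44 was present in both lists, with 2.72 (92.7) and 4.21 (95.4), as was one downstream of Slc25a5, with 2.79 (93.8) and 3.88 (92.4).

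The highest peaks without an overlapping peak were, in control, in introns of Slc25a21 (chr12:57921364-57922044, fold 2.81, percentile 94.0), Slc25a13 (chr6:6104997-6105690, 2.40, 84.9) and Slc25a33 (chr4:149135915-149136208, 2.23, 74.9). In the Taf4-inactivated list they lay upstream of Slc25a24 (chr3:108920065-108920359, 4.31, 96.1) and Slc25a31 (chr3:40508731-40509124, 3.76, 91.0) and in an intron of Slc25a13 (chr6:6070902-6071174, 3.58, 88.5). Slc25a21 and Slc25a24 thus had a strong unmatched peak in addition to a start site peak that stood higher in control. The Slc25a24 peak was centred at -5855 bp from the main start, on its upstream side, and had a −log10 q of 11.3.

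The sequences of a peak of each kind are shown, that upstream of Slc25a24, whole and listed in the Taf4-inactivated library alone, and the middle 300 bases (chr2:32296296-32296595) of the shared peak in Slc25a25, both on the plus strand of mm9. Capitals mark, on either strand, the letters searched for HNF4 (CAAAGTC), the core of the CTCF site (AGGGGGC), the factor AP-1 (TGANTCA) and the factors of the GATA family (GATAA).
Slc25a24 upstream: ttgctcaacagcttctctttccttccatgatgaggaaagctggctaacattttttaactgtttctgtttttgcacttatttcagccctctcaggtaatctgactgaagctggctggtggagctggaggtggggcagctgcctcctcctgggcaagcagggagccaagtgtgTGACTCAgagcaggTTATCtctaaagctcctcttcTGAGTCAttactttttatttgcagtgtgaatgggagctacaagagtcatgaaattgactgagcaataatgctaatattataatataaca
Slc25a25 intron: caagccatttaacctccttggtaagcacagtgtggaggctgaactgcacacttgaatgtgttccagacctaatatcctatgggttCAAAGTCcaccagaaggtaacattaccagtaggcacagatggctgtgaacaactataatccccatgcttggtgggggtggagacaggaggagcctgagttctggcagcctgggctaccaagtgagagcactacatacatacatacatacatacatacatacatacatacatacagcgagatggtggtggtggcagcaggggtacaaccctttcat

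The Slc25a24 sequence held the AP-1 letters at 2 places and the GATA letters at 1, and the Slc25a25 sequence the HNF4 letters at 1. In the middle 300 bases of all peaks away from start sites, the AP-1 letters were present in 10.4% of the control list and 14.2% of the Taf4-inactivated list, and around the members in 13 of 98 (13.3%) and 10 of 83 (12.05%). The HNF4 letters, of a factor of mature enterocytes, were present in 13 of 98 (13.3%) and 9 of 83 (10.8%) of the peaks around the members, beside 5.17% and 7.45% of all such peaks. The GATA letters were present in 28.6% and 37.3% around the members, beside 25.8% and 31.0%. The CTCF letters were present in 4.08% and 4.82%, beside 6.06% and 6.02%. The peaks of the whole lists lie at any distance from genes. Those around the members lie in the gene body or within 10 kb of it, so the sets differ in position.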

How the data were processed

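ATAC-seq was done by the authors at day 3 of culture. By the submitters' processing notes, reads were mapped to mm9 with Bowtie 1.0.0, and broad peaks were called per library with MACS2 2.1.1. Uniquely mapping reads were kept. How duplicate and mitochondrial reads were treated is not given in the sources used here. In the deposited files the score is the −log10 q multiplied by 10 and truncated. The deposited fold is a ratio to the library's own background, and the deposited −log10 p and −log10 q are, like it, averages over a peak. The deposited files hold peaks and no total counts. Relative depth was therefore estimated from the background that gives both fold and p, at its 5th percentile over the narrowest 10% of peaks. Groups came from the genotype in the labels.

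Genes and start sites were those of the GENCODE annotation of NCBIM37 (mm9), and positions were 1-based. The main start was that of most protein-coding transcripts of a gene, and the most upstream where tied. Where a gene had several start site peaks, that with the highest fold was used. Peaks of the lists were matched at 1 bp of overlap. Python 3.11.15, numpy 2.4.6, pandas 2.3.3, scipy 1.17.1 and matplotlib 3.10.9 were used, and the steps were tested on simulated data. Intervals are exact (Clopper-Pearson) at 95%. With 1 library per genotype no p-value was computed.

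The members, gene lists and comparisons were chosen with earlier results of these data known. Named were the members with a start site peak in 1 list or none, the 5 members that differed most in rank either way, the 3 highest and 3 lowest in each list, the 3 with the most other peaks, the 3 highest other peaks and the 3 highest without an overlapping peak per list, examples of each group, and the related transport genes. The other members, the Slc25a2 window, the other peaks of Slc25a44 and Slc25a5, and the sequences of Slc25a3, Slc25a27, Slc25a47, the divergent pairs and the 2 other peaks were added after their values were seen. 1 member and 1 marker gene are not named here, though counts and medians include them. Alternatives concerned the peaks used, the start site distance, the ranking value, the window and the overlap.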

Additional observations from a re-analysis of the deposited data

How the results depend on the processing

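No paired analysis was possible because each genotype had 1 library and no test was made. Of 45 alternative values of the comparisons 30 stayed within their limits and 15 moved. The median rank difference stayed below 0, and the other comparisons are counts or shares, which cannot change sign. Of the values of single members, 7 had the other sign, in 5 members (Slc25a13, Slc25a26, Slc25a32, Slc25a40 and Slc25a45) whose reported differences were within 1.85 points of 0. Members with a start site peak numbered 29 in control and 35 after Taf4 inactivation at a −log10 q of at least 5, beside 35.5% and 46.5% of all protein-coding genes. Members at least 20 points higher in control numbered 2 by −log10 p, and those higher in the Taf4-inactivated list 1 by −log10 p and 1 among start site peaks. Other peaks in control numbered 73 at a −log10 q of at least 2, 16 at 5, 63 in the gene body alone and 407 with 50 kb, and in the Taf4-inactivated list 49 at 5, 54 in the gene body and 341 with 50 kb. The share without an overlapping peak in control was 26.0% at 2, 18.8% at 5 and 66.1% when 50% of both peaks had to overlap. In the Taf4-inactivated list it was 73.5% at 5 and 61.3% at 50% overlap. The shares around all protein-coding genes at 50% overlap are not given here, so these values have no background beside them. The order of the shares turned at 2, to 26.0% and 33.3% (44.9% and 48.1% around all protein-coding genes), at 5 (9.82% and 61.7% around all), and with lists of equal length. The cause was not tested. Of 120 alternative values of single members 17 moved, among them Slc25a37, at -3.90 points, Slc25a39, at 2.28, and Slc25a10, at 0.49, all by −log10 p, and Slc25a42, at 20.4 with the nearest peak.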
